A study of Mus musculus with 6 samples.

Results

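The 9 mouse genes described here encode CaMKII and Cdk5, a pair of neuronal protein kinases, together with the proteins that switch them on or hold them off. They are the 4 CaMKII subunits (Camk2a, Camk2b, Camk2d and Camk2g), the 2 CaMKII inhibitors (Camk2n1 and Camk2n2), the kinase Cdk5 and its 2 activators (Cdk5r1 and Cdk5r2), out of 18194 genes measured. All 28 probe sets annotated to exactly 1 of these genes were used. A probe set is a handful of short probes whose signals are combined into 1 value for a transcript. The family was chosen by name, but with the REST shRNA against control shRNA differences of these arrays already known, so those differences are given below as a description, with no test of them. The data came from 6 Affymetrix arrays of NSP cells cultured from E12.5 mouse brains. Of the 6 samples, 3 received a lentivirus with a control shRNA and 3 a lentivirus with an shRNA against REST, and the cells were grown for 6 days after the virus was removed. All 6 samples were infected, none was uninfected, and separate cultures or animals are not named for them, nor is the number of hairpins. The p-values below therefore measure the spread between these samples only, which may be technical.

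CaMKII is a kinase of many subunits that is activated by calcium-loaded calmodulin and that phosphorylates glutamate receptors and other synaptic proteins. Camk2a and Camk2b are the subunits that dominate in neurons of the forebrain, while Camk2d and Camk2g are made in many tissues. The small proteins encoded by Camk2n1 and Camk2n2 bind active CaMKII and block it. Cdk5 is a relative of the cell cycle kinases that has no cyclin of its own in neurons and is activated by Cdk5r1 or Cdk5r2, and it acts in neuron migration, axon growth and synaptic vesicle recycling. REST is a repressor that keeps many neuronal genes low by binding a DNA element called RE1.

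The clearest differences of the family lay in 1 inhibitor and 1 activator. On their brightest probe sets Camk2n2 and Cdk5r2 were higher on every REST shRNA array than on any control array, 2.22-fold and 2.73-fold by group means. The second, dimmer probe set of Cdk5r2 differed by only 0.13 on the log2 scale, with overlapping groups. Their closest relatives, Camk2n1 and Cdk5r1, differed by -0.08 and 0.00, also with overlapping groups. Without REST shRNA array 2, on which both relatives were lowest, these differences were 0.52 and 0.48. Camk2d was lower on all 7 of its probe sets, by group means. The remaining subunits and Cdk5 itself overlapped between groups.

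The promoters of Cdk5r2 and Camk2n2 are shown because these are the members that were higher together, and that of Camk2d because its probe sets were all lower. Each is the stretch of 250 bases before the RefSeq transcript start, assembly GRCm38.p6, read 5′ to 3′ on the gene's strand. RefSeq promoters were matched for 4 of the 9 genes, these 3 and Camk2b. Capitals mark GC boxes (GGGCGG on either strand, bound by Sp1) and CCAAT boxes (CCAAT on either strand, bound by NF-Y). Cdk5r2 lies at chr1:74854779-74855028, plus strand, Camk2n2 at chr16:20621279-20621528, minus strand, and Camk2d at chr3:126596701-126596950, plus strand.
Cdk5r2: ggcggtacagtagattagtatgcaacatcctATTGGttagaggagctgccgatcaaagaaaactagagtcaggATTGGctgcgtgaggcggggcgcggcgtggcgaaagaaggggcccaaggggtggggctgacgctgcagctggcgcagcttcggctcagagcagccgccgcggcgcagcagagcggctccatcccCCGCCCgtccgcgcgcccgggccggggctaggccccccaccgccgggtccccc
Camk2n2: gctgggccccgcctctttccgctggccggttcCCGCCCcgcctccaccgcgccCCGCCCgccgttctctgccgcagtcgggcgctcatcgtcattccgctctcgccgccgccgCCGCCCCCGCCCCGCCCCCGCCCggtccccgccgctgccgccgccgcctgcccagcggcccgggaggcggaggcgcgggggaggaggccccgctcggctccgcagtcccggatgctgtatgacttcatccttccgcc
Camk2d: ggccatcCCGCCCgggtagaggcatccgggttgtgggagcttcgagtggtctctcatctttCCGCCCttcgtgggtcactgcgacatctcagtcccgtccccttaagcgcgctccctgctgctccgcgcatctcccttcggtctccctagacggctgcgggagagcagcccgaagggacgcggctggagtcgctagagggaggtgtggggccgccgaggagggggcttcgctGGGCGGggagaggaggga

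All 3 stretches were rich in G and C, at 68.8% for Cdk5r2, 80.0% for Camk2n2 and 68.4% for Camk2d, against a median of 52.4% over 32851 promoters of the same length. Camk2b stood at 78.4%. The GC box was matched 6 times in Camk2n2, 3 times in Camk2d, 3 times in Camk2b and 1 time in Cdk5r2, and some of these matches share a base with the next. It occurred in 32.7% of all promoters. The CCAAT box was matched 2 times in Cdk5r2, both on the opposite strand, and 0 times in the others (33.8% of all promoters). The motif TGACG, part of the cAMP response element, was matched 1 time each in Cdk5r2 and Camk2n2 (17.8% of all promoters), and the E-box CAGCTG 1 time in Cdk5r2 (13.0%). Within these windows 0 matches were found to the RE1 consensus (0.0548% of all promoters), to a left part of RE1, TCAGCACC (1.32%), to a right part, GGACAG (18.7%), or to TATAAA (12.4%), each searched on both strands. These counts describe letters in 250 bases and do not bear on sites elsewhere in the genes.

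Several measurements of the whole series bear on the values below. Rest, the targeted transcript, was at 57.3% to 71.5% of control by group means on its 4 probe sets. On all 4 every REST shRNA array lay below every control array, and so also in each pair of arrays that share a number. The size was uneven. On the brightest Rest probe set the differences were -0.28, -1.05 and -0.70 (log2) for arrays numbered 1, 2 and 3. REST shRNA array 2 was the lowest array there, though not on every Rest probe set. With limma, 0 of 18194 genes and 0 of 45101 probe sets passed an adjusted p of 0.05 in either direction (0% called in both), so none of the 9 genes did. At an unadjusted p under 0.05 there were 518 genes, 323 higher and 195 lower, and 1561 probe sets, 692 higher and 869 lower, so the balance of directions was opposite at the 2 levels. Markers of the labelled cell type were present, with 13 of 13 neural progenitor markers above the highest bacterial control signal, 3.24 on the log2 scale. So were 15 of 15 neuronal, 10 of 10 astrocyte, 8 of 9 oligodendrocyte lineage and 6 of 8 muscle markers, but only 3 of 8 microglia markers. This measure therefore does not single out the labelled cell type. The summed signal of the progenitor markers was 27021 to 28283 in control and 22451 to 26011 in REST shRNA, so the groups were separate. Of these 13 markers, 2 had a positive difference and 11 a negative one (median -0.25), beside 57.2% positive over all genes. Their part in the values of the 9 genes was not tested. REST shRNA array 2 stood apart. Its summed linear signal over 10 astrocyte markers was 4427, against 11401 to 14434 on the other 5 arrays, and over 9 markers of dividing cells it was 11319, against 1894 to 6550. Control array 3 had the largest 3′ minus 5′ gap of the Gapdh control probes, 2.87 on the log2 scale against 1.72 to 2.25 on the others. The other control transcripts did not set it apart. Its gap was 0.37 for Actb, against 0.25 to 0.37 on the others, and 1.68 for Pcx, against 1.55 to 2.41.

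**Figure D1:**
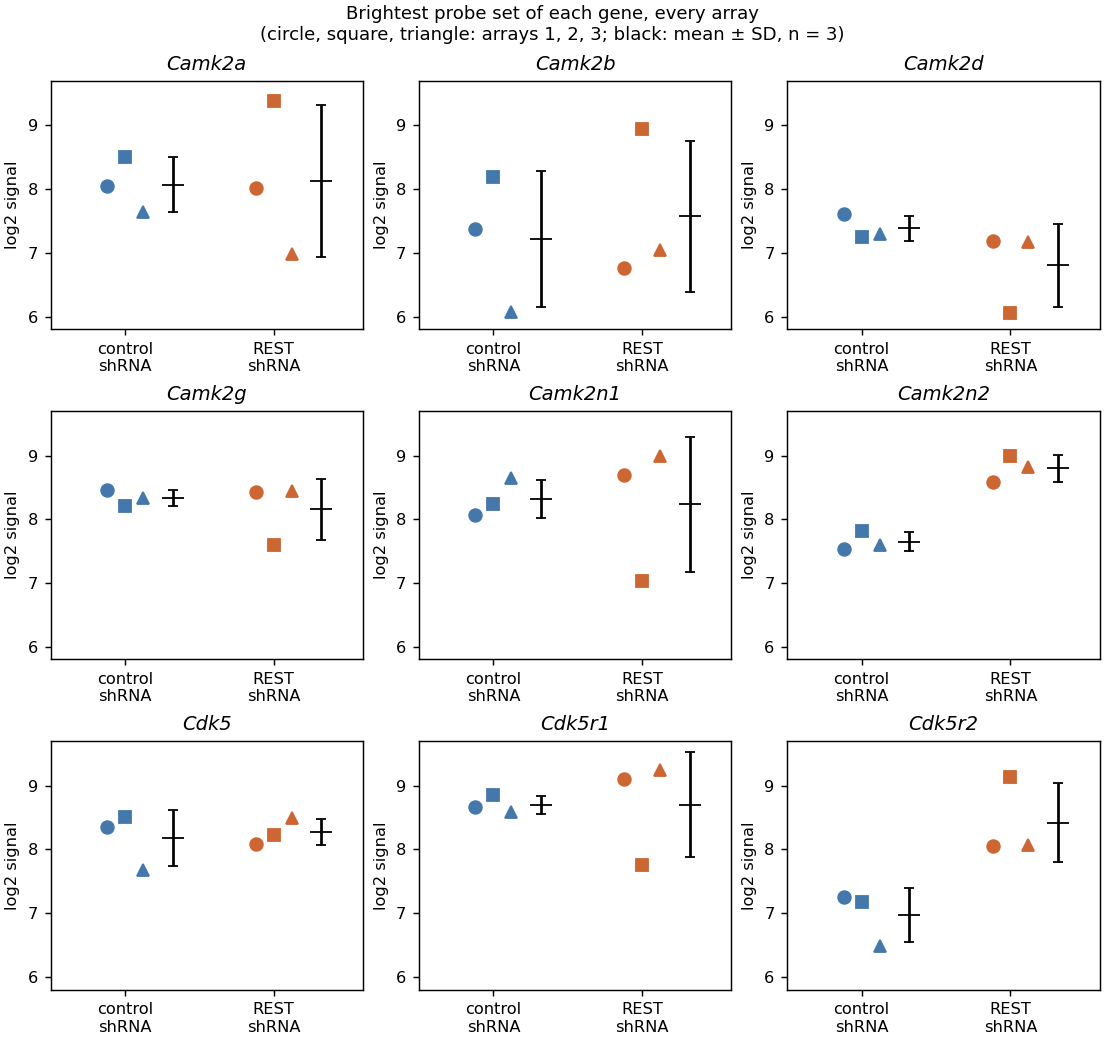
Log2 signal of the brightest probe set of each of the 9 genes on every array, by group, with the group mean ± SD (n = 3) in black. The REST shRNA arrays of Camk2n2 (8.58 to 8.998) and Cdk5r2 (8.06 to 9.14) lie above all control arrays, and those of Camk2d (6.06 to 7.19) lie below all of them.

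Among the inhibitors, Camk2n2 gave the most even difference of the family. Its single probe set read 7.53, 7.82 and 7.60 on control arrays 1, 2 and 3, and 8.58, 8.998 and 8.82 on REST shRNA arrays 1, 2 and 3 (log2 signal). The lowest REST shRNA array stood well above the highest control array. The group means were 7.65 ± 0.15 and 8.80 ± 0.21 (SD, n = 3), a difference of 1.15 ± 0.17 (SE, log2) or 2.22-fold. Arrays with the same number differed by 1.05, 1.18 and 1.23, so the difference was of similar size in all 3 pairs, and it stayed between 2.08-fold and 2.40-fold when any single array was left out.

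Camk2n1, the other inhibitor, behaved otherwise. Its brighter probe set read 8.07, 8.24 and 8.64 on the control arrays and 8.69, 7.03 and 8.99 on the REST shRNA arrays. The REST shRNA arrays numbered 1 and 3 were the 2 highest of all and array 2 was the lowest of all, so the groups overlapped. The difference was -0.08 ± 0.51 (SE, log2), or 0.52 when REST shRNA array 2 was left out. The dimmer probe set had the same arrangement, with pair differences of 0.22, -0.37 and 0.10. The summed signal of the astrocyte markers was also lowest on REST shRNA array 2. By group means 10 of 10 were negative (median -0.44), beside 57.2% positive over all genes. Their mean pair differences were 0.04, -1.68 and 0.11, so the lower list mean lay in pair 2. Within the list, Aqp4, Slc1a2 and Fgfr3 were lower in every pair and the others were not. The summed signal of the 10 markers ranged from 11401 to 13424 in control and from 4427 to 14434 in REST shRNA. None of the 10 lay below the bacterial controls. Their part in the values of Camk2n1 was not tested. In RNA from a mixed culture, fewer cells of a type and less RNA per cell cannot be told apart.

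The difference of Camk2n2 exceeded that of Camk2n1 by 0.43, 2.39 and 0.88 in pairs 1, 2 and 3 (log2). It was larger in every pair, and most so in pair 2, where Camk2n1 was low.

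The activators of Cdk5 were split in the same way. Cdk5r2, whose product activates Cdk5 and is tied to membranes, read 7.26, 7.17 and 6.49 on the control arrays and 8.06, 9.14 and 8.07 on the REST shRNA arrays. The groups were separate, with control array 3 the lowest and REST shRNA array 2 the highest. The means were 6.97 ± 0.42 and 8.42 ± 0.62 (SD, n = 3), a difference of 1.45 ± 0.36 (SE, log2) or 2.73-fold. Pair differences were 0.80, 1.96 and 1.58, so the size varied from 1.74-fold to 3.89-fold. With separate groups every pair had to be positive, so the shared sign adds nothing. Leaving out REST shRNA array 2 gave 2.13-fold and leaving out control array 3, the one with the largest Gapdh gap, gave 2.31-fold. The second probe set of Cdk5r2 was dim, at a mean of 4.05, and its difference was only 0.13, with pairs at -0.03, 0.27 and 0.16.

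Cdk5r1, the more widely studied activator, which calpain can cut to a shorter and longer-lived form, was read by 4 probe sets. The brightest read 8.66, 8.86 and 8.58 on the control arrays and 9.11, 7.75 and 9.24 on the REST shRNA arrays. As with Camk2n1, REST shRNA arrays 1 and 3 were above every control array and array 2 was below every one. The difference of the means was 0.00 ± 0.40 (SE, log2), with pairs at 0.45, -1.11 and 0.66. Without REST shRNA array 2 it was 0.48, a 1.39-fold higher level. The other 3 probe sets differed by -0.20, 0.16 and 0.08, and on all 4 the array numbered 2 was the lowest of the 6. The difference of Cdk5r2 exceeded that of Cdk5r1 by 0.35, 3.07 and 0.92 in pairs 1, 2 and 3.

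Over all genes, 104 differed by more than 1 on the log2 scale in the upward direction, 0.572% of those measured, and Camk2n2 and Cdk5r2 were among them. By size of difference Cdk5r2 was number 28 and Camk2n2 number 67 from the top. Groups that did not overlap, with REST shRNA higher, were found for 2 of the 9 genes against 4.91% of all genes, and with REST shRNA lower for 1 of the 9 against 2.65%. Over probe sets the counts were 2 of 28 higher, against 4.35% of all probe sets, and 3 of 28 lower, against 3.89%. The median difference of the 9 genes was 0.06, beside 0.04 over all genes. Since the family was picked with these differences in view, nothing is read from these counts. Of 15 neuronal markers, 11 had a positive difference and 4 a negative one (median 0.65), beside 57.2% positive over all genes, and 0 passed the adjusted threshold (limma, 5 higher and 0 lower at an unadjusted p under 0.05). Their summed signal was 6582 to 8247 in control and 7360 to 11099 in REST shRNA, so the groups overlapped by this measure. By the mean of log2 values the groups were separate. It was 7.61, 7.74 and 7.93 on the control arrays and 8.40, 8.18 and 8.72 on the REST shRNA arrays. Of the 15 markers, 6 had separate groups in the higher direction (4.91% of all genes) and 0 in the lower one (2.65%). The part of the neuronal markers in the 2 differences was not tested.

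**Figure D2:**
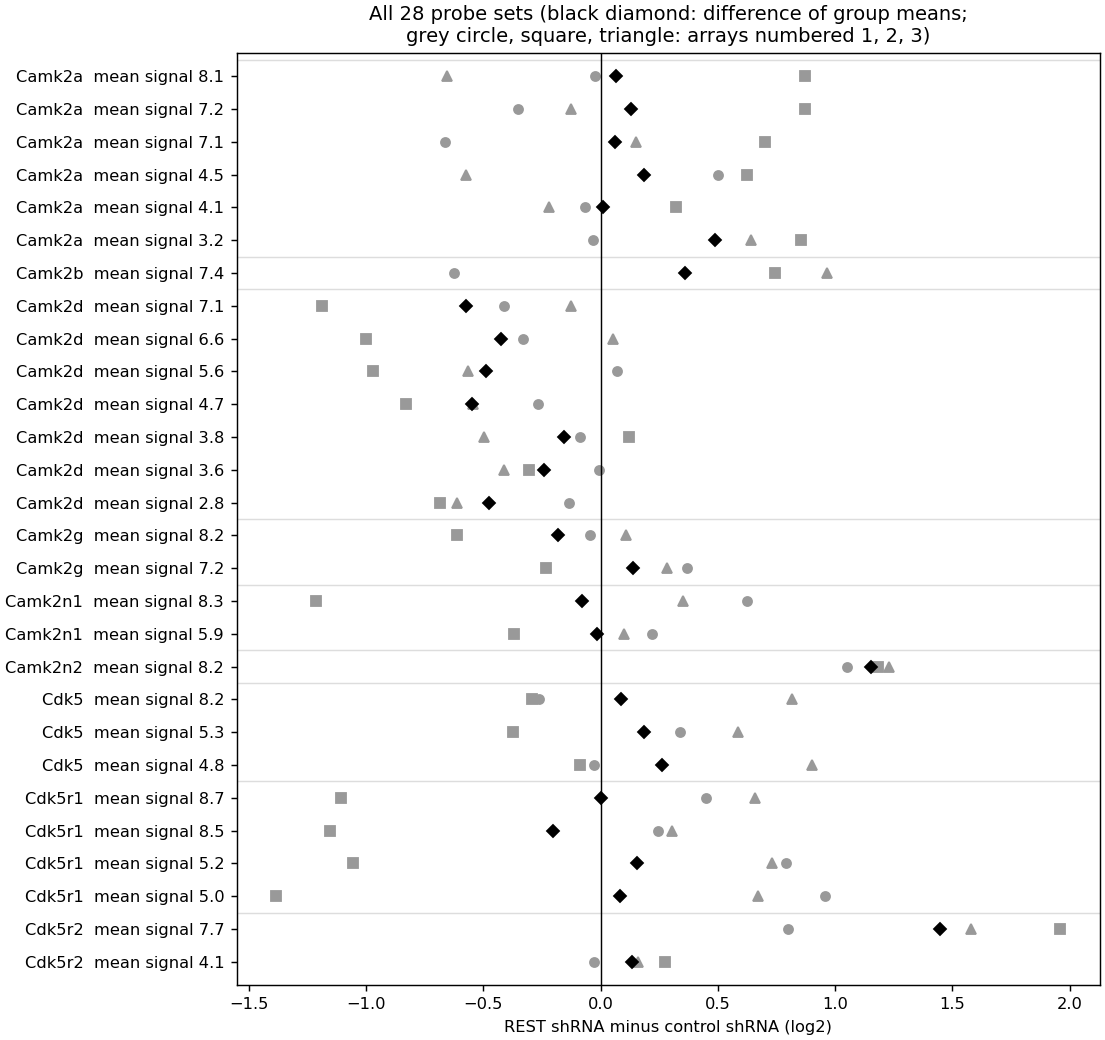
Difference REST shRNA minus control shRNA (log2) for all 28 probe sets, ordered by gene and signal, as the difference of group means (black) and within each array number (grey). All 7 Camk2d probe sets lie left of 0 by their means, between -0.58 and -0.15, while the grey squares of Cdk5r1 and Camk2n1 (arrays numbered 2) lie far left of their circles and triangles.

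Among the CaMKII subunits, Camk2d was the one whose groups were separate on its brightest probe set. The brightest of its 7 probe sets read 7.61, 7.24 and 7.30 on the control arrays and 7.19, 6.06 and 7.17 on the REST shRNA arrays. Every REST shRNA array lay below every control array, but arrays 1 and 3 did so by little and array 2 by more than 1 log2 unit. The means were 7.38 ± 0.20 and 6.81 ± 0.65 (SD, n = 3), a difference of -0.58 ± 0.33 (SE, log2) or 67.1% of control. It was -0.41, -1.19 and -0.13 in pairs 1, 2 and 3, and -0.20 without REST shRNA array 2. The other 6 probe sets differed by -0.15 to -0.55. The groups were separate on 3 of the 7 probe sets, which made these lower in every pair. With them, 4 of the 7 were lower in every pair, and 6 of the 7 had a mean above the bacterial controls.

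Camk2g, the other broadly made subunit, had 2 probe sets that went opposite ways. The brighter one read 8.47, 8.22 and 8.33 on the control arrays and 8.42, 7.60 and 8.44 on the REST shRNA arrays. Arrays 1 and 3 of the REST shRNA group fell inside the control range and array 2 below it. Its difference was -0.18 ± 0.26 (SE, log2), and that of the dimmer probe set was 0.14. Without REST shRNA array 2 the brighter probe set differed by 0.09.

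Camk2a and Camk2b, the neuronal subunits, varied far more between arrays of 1 group than between groups. The brightest of 6 Camk2a probe sets read 8.05, 8.51 and 7.64 on the control arrays and 8.03, 9.38 and 6.99 on the REST shRNA arrays. REST shRNA arrays thus gave both the highest and the lowest value. The difference of means was 0.06 ± 0.58 (SE, log2), with pairs at -0.02, 0.87 and -0.66. Leaving out REST shRNA array 2 gave -0.56, and leaving out array 3 of that group gave 0.64. On all 6 probe sets REST shRNA array 2 was the highest array, and the differences of means were 0.01 to 0.49.

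Camk2b was read by 1 probe set, at 7.38, 8.20 and 6.07 on the control arrays and 6.75, 8.94 and 7.04 on the REST shRNA arrays. Control array 3 was the lowest and REST shRNA array 2 the highest. The difference was 0.36 ± 0.72 (SE, log2), with pairs at -0.62, 0.74 and 0.97. It was -0.32 without REST shRNA array 2 and -0.21 without control array 3.

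Markers of dividing cells varied over the same arrays. Their summed signal was 6173, 6550 and 1982 on control arrays 1, 2 and 3 and 3931, 11319 and 1894 on the REST shRNA arrays, and 7 of 9 markers had a positive difference (median 0.04), with 0 below the bacterial controls. From highest to lowest, this sum and Camk2a put the 6 arrays in 1 and the same order. Camk2b followed that order except that it put REST shRNA array 3 above REST shRNA array 1 and control array 3. With the mean of log2 values in place of the sum, control array 3 and REST shRNA array 3 change places in the marker order. The part of the dividing cells in the Camk2a and Camk2b values was not tested.

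**Figure D3:**
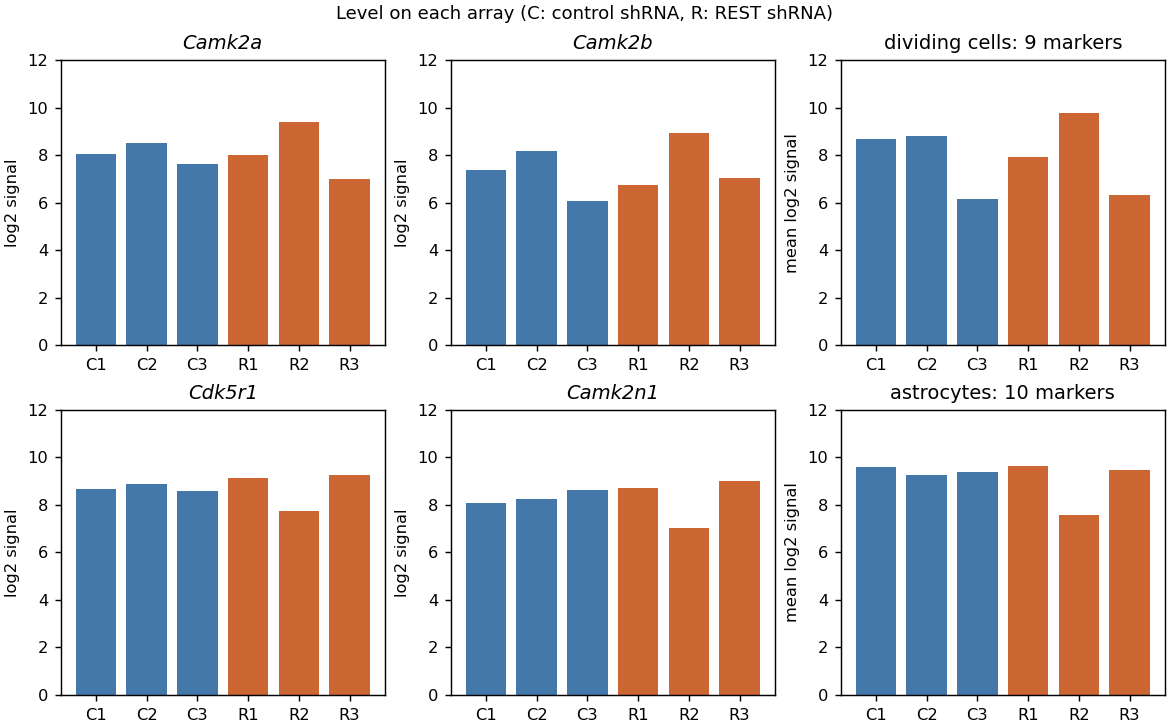
Log2 signal of Camk2a, Camk2b, Cdk5r1 and Camk2n1 (brightest probe set) and mean log2 signal of 9 dividing cell markers and 10 astrocyte markers on each array, C1 to C3 control shRNA and R1 to R3 REST shRNA. On R2 Camk2a (9.38), Camk2b (8.94) and the dividing cell markers are highest, and Cdk5r1 (7.75), Camk2n1 (7.03) and the astrocyte markers are lowest.

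Cdk5 itself showed little separation. Its brightest probe set read 8.35, 8.52 and 7.68 on the control arrays and 8.09, 8.22 and 8.497 on the REST shRNA arrays. All REST shRNA arrays fell inside the control range, whose lower end was set by control array 3. The difference was 0.09 ± 0.25 (SE, log2), with pairs at -0.26, -0.29 and 0.81, and without control array 3 it was -0.16. Another probe set was likewise lowest on control array 3 (4.12, against 4.81 to 5.05 on the other arrays). The third differed by 0.18.

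REST shRNA array 2 therefore gave the highest of the 6 values on 9 of the 28 probe sets and the lowest on 14. Over all probe sets of the array these shares were 24.4% and 24.0%. The 9 were those of Camk2a, Camk2b and Camk2n2 and the bright one of Cdk5r2, and the 14 included all of Camk2g, Camk2n1 and Cdk5r1. Camk2n2 was also highest there, but without that array its difference was still 1.05.

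The arrays' profiles of the 3 genes with separate groups were compared with those of 13831 other genes whose mean signal was above the bacterial controls, by the root mean square distance between log2 values centred on each gene's mean over the 6 arrays. The nearest to Camk2n2 were Marchf4, a ubiquitin ligase, at a distance of 0.14, Cacna1b, the pore of a presynaptic calcium channel, at 0.15, and Syn1, a synaptic vesicle phosphoprotein, at 0.16. The nearest to Cdk5r2 were Nrsn1, a neuronal membrane protein, at 0.14, Rph3a, a Rab effector of vesicle release, at 0.14, and Tagln2, an actin-binding protein, at 0.19. Camk2n2 was the number 29 neighbour of Cdk5r2, at 0.39. The nearest to Camk2d were Slc41a3, a magnesium transporter family member, at 0.08, Rhbdl3, a rhomboid family protein, at 0.10, and Ncoa1, a nuclear receptor coactivator, at 0.10. Of the family Camk2g came closest to Camk2d, as number 154, at 0.23. These neighbours are a description over 6 arrays, and the 3 genes had been singled out by the separation of their groups.

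Beyond the 9 genes, 8 lists of their partners, substrates and opposing enzymes, chosen with earlier results of these data known, held 74 measured genes. None passed the adjusted threshold in either direction (limma, smallest adjusted p 0.884). At an unadjusted p under 0.05, 6 of the 74 were higher, 8.11% against 1.78% of all genes, and 0 were lower, against 1.07% of all genes. The 6 were Camk1g, Camkv, Syn1, Gria1, Grin2b and Gap43. The median difference over the 74 genes was 0.10, beside 0.04 over all genes, and 44 of the 74 were positive, beside 57.2% of all genes. Groups were separate for 6 of the 74 in the higher direction, against 4.91% of all genes, and for 4 in the lower one, against 2.65%. Nothing is read from these counts.

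Of the CaM kinases outside CaMKII, 7 of 7 had a positive difference (median 0.44), beside 57.2% of all genes, and 0 passed the adjusted threshold. Camk1g, a CaM kinase of neurons, read 2.85, 2.85 and 3.07 on the control arrays and 3.25, 3.83 and 3.63 on the REST shRNA arrays. Its mean over all arrays was 3.25, just above the highest bacterial control signal, 3.24. Every control array of Camk1g lay below that signal, so its mean passed through the REST shRNA arrays. Camkv, a kinase-like protein without known catalytic activity, read 4.10, 3.97 and 4.32 in control and 4.97, 4.32 and 5.75 in REST shRNA. The groups were separate for both genes, for Camkv barely, and their differences were 0.65 ± 0.19 and 0.89 ± 0.35 (SE, log2).

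Of the CaMKII partners and substrates at the synapse, 11 of 12 had a positive difference (median 0.52), beside 57.2% of all genes. Again 0 passed the adjusted threshold. The negative one, Grin2a (-0.09), and one of the positive ones, Actn2 (0.24), had means below the bacterial controls. Syn1, which tethers synaptic vesicles and is a substrate of both kinases, read 6.66, 6.71 and 6.24 in control and 7.45, 8.10 and 7.77 in REST shRNA. Its groups were separate and its difference was 1.23 ± 0.23 (SE, log2), with pairs at 0.79, 1.39 and 1.52. Gria1, an AMPA receptor subunit, differed by 0.65 ± 0.26, most of it in pair 1 (1.46, against 0.09 and 0.41 in pairs 2 and 3), and its dimmer probe set by 0.95, with overlapping groups. Tiam1, a Rac exchange factor, was the other member with separate groups, at 0.35, and was picked out after its values were seen.

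Of 22 Cdk5 substrates 12 were positive (median 0.03), close to the share over all genes, and 1 had an unadjusted p under 0.05, Syn1 again. Rap1gap2, a Rap1 GTPase activator, was the next by p, at -0.35 ± 0.17 (SE, log2), with overlapping groups. Synj1, a phosphatase of vesicle recycling, and Src, a tyrosine kinase, had separate groups in the lower direction, at -0.32 and -0.21, and were also picked out after their values were seen. Of 9 Cdk5 binding proteins 6 were positive, with a median of 0.14, Cables2 at 0.41 ± 0.21 and Ccne1, cyclin E, at 0.49 ± 0.48 (0.68 on its dimmer probe set). The PCTAIRE and Pftaire kinases, relatives of Cdk5, and their cyclin Y partners had 1 of 6 positive and a median of -0.07, with Ccny at -0.13 ± 0.22 and Cdk16 at 0.09 ± 0.15. The other 6 probe sets of Ccny differed by -0.04 to -0.80, the last below the bacterial controls and with separate groups, and the other 4 of Cdk16 by 0.04 to 0.34, the last with separate groups. The calpain system, which cuts the product of Cdk5r1, had 1 of 5 positive and a median of -0.11, with Cast at -0.31 ± 0.19 and Capns1 at 0.18 ± 0.27. Second probe sets of Cast differed by 0.17 and 0.03, below the bacterial controls.

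Calmodulin-binding proteins and the genes listed for the phosphatases that oppose CaM kinases showed no common direction. Of 6 calmodulin-binding proteins 4 were positive, with a median of 0.03. Gap43, a growth cone protein that binds calmodulin and that also stands in the neuronal marker list, read 8.36, 8.92 and 8.30 in control and 9.31, 10.2 and 9.44 in REST shRNA, with separate groups and a difference of 1.13 ± 0.30 (SE, log2). Pcp4, a small calmodulin regulator, differed by -0.63 ± 0.28, with all 3 pairs negative (-0.22, -1.27 and -0.40). Of 11 genes in the phosphatase list 5 were positive, with a median of 0.00. The list mixes phosphatase subunits with Ppp1r1a (-0.32) and Ppp1r1b (0.34), which encode phosphatase inhibitors, so its count is not one of phosphatases alone. The calcineurin catalytic subunits Ppp3ca and Ppp3cb were lower on every REST shRNA array, by small amounts, at -0.24 ± 0.14 and -0.22 ± 0.14, while other probe sets of Ppp3ca differed by -0.18 and -0.24 and those of Ppp3cb above background by 0.10 and 0.12.

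**Figure D4:**
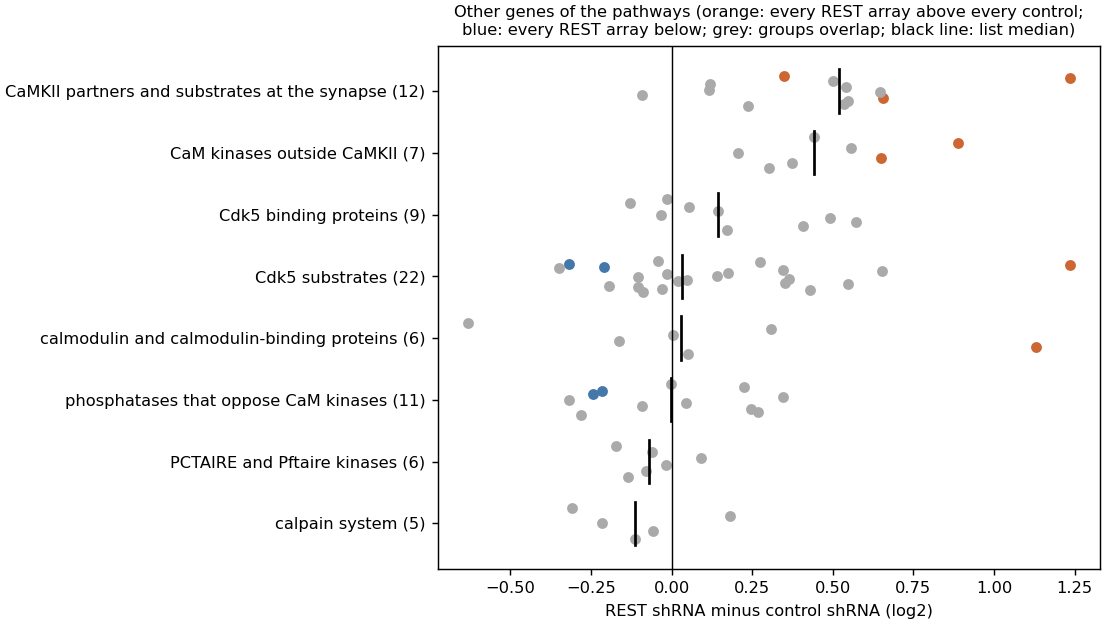
Difference REST shRNA minus control shRNA (log2) of each measured gene in the 8 pathway lists, with the number of genes in brackets and the list median as a black line; Syn1 and some others stand in 2 lists. The medians of the synaptic CaMKII partners (0.52) and the CaM kinases outside CaMKII (0.44) lie furthest right, and 0 of the genes passed the adjusted threshold.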

How the data were processed

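The deposited values are log2 signals per probe set, from 1.00 to 14.2. The log2 unit was read from this range. How the authors corrected background, summarised probes and normalized is not given in the sources used here. No further scaling was applied, so differences are relative to the other genes. Gene names came from the platform annotation, which gave 1 gene for 34958 probe sets and several for 932 (not used by gene), and did not list 9211. Symbols were checked by gene number against RefSeq (34754 matched). Each gene was represented by its brightest probe set over all 6 arrays, and the report also gives the other probe sets of the 9 genes.

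Fits used limma 3.58.1 in R 4.3.3 (lmFit and eBayes, group as the sole term, two-sided) over all 18194 genes and over all 45101 probe sets, with Benjamini-Hochberg adjustment over each whole table. The steps were tested on simulated data. With 3 arrays per group precision is limited, and an exact permutation test could not go below 0.1. The members, gene lists and tests were chosen with earlier results of these data known. Genes were named by a rule: all members, the 3 nearest neighbours of each member with separate groups, and the 2 genes of each pathway list with the smallest p where none was called. Exceptions are said. Genes of the lists that were not matched were not analysed here.

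Group and replicate number came from the sample titles. As a check of pairing, arrays 1, 2 and 3 of both groups were compared by their deviations from the group mean, whose correlations were 0.108, 0.365 and 0.504. All exceeded 0.1, so differences are also given between same-numbered arrays, called pairs here. The titles state no pairing, and the main fit and its SE did not use it. For number 1 the correlation was weaker than that of control array 1 with REST shRNA array 2, 0.268. Of the marker lists, endothelium and pericytes had a median difference of -0.03, mesenchyme and meninges 0.23 and microglia 0.05. In these only 4 of 8, 3 of 6 and 3 of 8 markers had a mean above the bacterial controls, so much of these medians is background signal. The median was 0.04 for the oligodendrocyte lineage, -0.25 for progenitors and 0.10 for striated and cardiac muscle. The muscle list ran from -1.56 (Actc1) to 2.31 (Myh7).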

Additional observations from a re-analysis of the deposited data

How the results depend on the processing

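The count of genes past the adjusted threshold was 0 in all 19 alternatives, and that of probe sets 0 in the 14 run on probe sets. With the replicate number as a block both counts were 0, with 407 genes higher and 258 lower at an unadjusted p under 0.05, against 323 and 195 without it, so the block changed no call. Those unadjusted counts were 756 and 370 with array weights, and leaving out 1 array moved them between 175 and 768 higher and between 100 and 357 lower, lowest without control array 1. Leaving out REST shRNA array 1 gave 643 and 357, REST shRNA array 2 768 and 296, and both arrays numbered 2 504 and 219. Centring each array on its median gave 414 and 149. Across the alternatives Camk2n2 differed by 1.05 to 1.26, Cdk5r2 by 0.79 (mean of its probe sets) to 1.77 and Camk2d by -0.80 to -0.20. Each kept 1 sign in all 19. Their groups were separate on the brightest probe set, so leaving out arrays could not change that sign. The replicate block and the background filters left the difference itself unchanged. The constant sign is therefore no added evidence. The other 6 members took both signs: Camk2a was positive in 15, Camk2b in 16, Camk2g in 2, Camk2n1 in 4, Cdk5 in 15 and Cdk5r1 in 7. The median of the 9 genes ranged from -0.28 to 0.28. The medians of the CaM kinases outside CaMKII (0.32 to 0.60) and of the synaptic CaMKII partners (0.29 to 0.56) were positive in all 19. Signals near the bacterial controls limit the dim probe sets.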
